A study of Mus musculus with 12 samples.

Results

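A stretch of mouse chromosome 4 between positions 41500000 and 43050000 (genome build mm10) holds several gene families whose copies are almost the same in sequence. It was chosen by measured values: a run of genes there was lower in libraries of astrocytes that carry the Cre recombinase. The members are the 77 genes, of 45777 in the deposited gene table, whose every transcript lies in that stretch. Of these, 47 are annotated as protein coding, 13 as long noncoding RNA and 17 as pseudogenes, 6 of them transcribed. The name near-identical copies fits only some of them: 33 members fell into 6 families of like sequence. Another 12, called unmatched below, are not long noncoding RNAs and had neither a family nor a matched transcript sequence. The other 32 were mostly ordinary single genes at both ends of the stretch. They include some long noncoding RNAs that also had no matched sequence.

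The libraries are from astrocytes of the mouse cerebral cortex at postnatal day 14, purified with antibody-coated dishes and magnetic beads, in 4 groups of 3. Cre- animals are Nr3c1 flox/flox, so that the gene of the glucocorticoid receptor can be cut out. AGR cKO animals carry in addition Aldh1l1-CreERT2, a recombinase made in cells that use the Aldh1l1 promoter, mostly astrocytes, and switched on by tamoxifen. Every animal, Cre- controls included, received 4-hydroxytamoxifen on days 5 to 7. Animals called ESD were taken from their dam for 3 hours daily between days 1 and 14, and the others are called control. The labels give no strain, sex or litter and do not say whether animals were pooled, so p-values measure the spread between libraries, which may be technical. The labels' genotype entries carry running numbers in some samples, and groups follow the sample titles. The table's column names mark genotype as cre_M and cre_P, taken to stand for minus and plus Cre, which no label spells out.

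As background, CCL21 and CCL19 are chemokines, small secreted proteins that guide cells. Both bind the receptor Ccr7 and draw T cells and dendritic cells into lymph nodes, and lymphatic endothelium and lymph node stroma are their best known sources. CCL27 binds Ccr10 and is best known from skin. The Il11ra genes encode the alpha chain of the interleukin-11 receptor, which binds the cytokine and then signals through gp130 (Il6st). The Fam205a genes are named by sequence, and no role is given for them here. In the common laboratory strain behind the reference genome, this stretch was copied several times, so that most families have members in tandem. The number of copies in the DNA of these animals was not measured here.

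The sequences show how little separates the copies. Coding parts were read from GENCODE M21 transcripts (GRCm38) and positions are counted from 1 at the first coding base. The coding part of Ccl21 is 399 bases long, and Gm13304, Gm10591, Gm21541 and Ccl21b had the same letters at every base. Ccl21a, which the files call the serine form, differed from them at 2 bases, A84T and T194C, where the first letter is that of Gm13304. Coding bases 71 to 210 hold both, in capitals, and are printed because they are all that tells these copies apart in the coding part. Gm13304 lies at chr4:42114787-42115917 on the plus strand and Ccl21a at chr4:42772860-42773991 on the minus strand.
Gm13304: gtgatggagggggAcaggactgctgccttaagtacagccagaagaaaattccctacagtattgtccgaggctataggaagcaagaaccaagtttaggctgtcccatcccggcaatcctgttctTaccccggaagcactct
Ccl21a: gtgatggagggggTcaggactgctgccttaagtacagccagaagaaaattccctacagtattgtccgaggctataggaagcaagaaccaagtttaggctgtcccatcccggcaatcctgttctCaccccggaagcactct

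In the interleukin-11 receptor family, Il11ra2 and Gm13305 had the same 1296 coding bases, and Il11ra1 differed from both at 13. Bases 951 to 1120 hold 6 of these, C956T, C993T, C1034T, G1062A, C1089T and G1116A, with the letter of Il11ra1 first. They are printed because Il11ra1, at chr4:41760443-41769473 on the plus strand, took most of the family's reads, and Gm13305, at chr4:42158842-42168603 on the minus strand, was among the copies. Capitals mark the differing bases.
Il11ra1: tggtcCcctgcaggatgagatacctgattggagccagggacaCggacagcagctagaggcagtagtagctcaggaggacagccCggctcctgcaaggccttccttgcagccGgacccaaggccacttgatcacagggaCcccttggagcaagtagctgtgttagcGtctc
Gm13305: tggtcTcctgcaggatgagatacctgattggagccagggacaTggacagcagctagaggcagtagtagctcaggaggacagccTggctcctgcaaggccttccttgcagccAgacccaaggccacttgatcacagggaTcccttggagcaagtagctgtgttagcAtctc

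The likeness reaches past the coding part. The RefSeq promoter table (GRCm38.p6) holds 47 of the 77 members. There the promoters of Gm13304 and Gm10591 were the same letter for letter, as were those of Ccl27b and Gm13306, and those of Gm20878, Gm21586 and Gm21953. The same held for Gm36562 with LOC115489926 and for Gm42276 with LOC115489925. These are long noncoding RNAs with no matched transcript, counted in no family. The 120 bases that end 2 bases before the annotated start of Gm13304 (chr4:42114666-42114785, plus strand) are shown with the matching stretches of Gm21541 (chr4:41903492-41903611, plus strand) and Ccl21a (chr4:42773992-42774111, minus strand), because these members had high and low values in the same libraries. Capitals mark the bases that differ among the 3: C14T in Gm21541, and C12T and C14T in Ccl21a, counted from the first base shown, with the letter of Gm13304 first.
Gm13304: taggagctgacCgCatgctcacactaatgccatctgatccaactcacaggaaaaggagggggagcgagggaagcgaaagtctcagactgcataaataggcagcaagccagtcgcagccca
Gm21541: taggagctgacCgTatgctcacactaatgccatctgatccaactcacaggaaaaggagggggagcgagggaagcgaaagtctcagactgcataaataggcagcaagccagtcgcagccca
Ccl21a: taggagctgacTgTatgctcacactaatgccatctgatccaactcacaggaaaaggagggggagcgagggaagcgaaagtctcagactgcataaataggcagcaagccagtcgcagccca

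The letters GNACANNNTGTNC, a form of the palindrome that the glucocorticoid receptor binds (its reverse complement reads the same), were in the promoter windows of 0 of the 47 members and of 0.537% of the 27025 genes in the table. The shorter site AGAACA, searched on both strands, was in those of 10 of the 47 members, about the same share as the 21.3% of all genes. The 10 were 1110017D15Rik, Ccl27b, Dnaic1, Dnajb5, Fam205a2, Gm13306, Gm30036, LOC115489923, LOC115489927 and Stoml2. No match says only that these letters are not in these windows.

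How far a read could tell the copies apart was estimated on 52 members, each from a single GENCODE transcript. Each transcript was cut into all its 50-base words, and the words found in no other GENCODE gene were counted. Over 29 family members a median of 10.4% of words were their own (range 0% to 54%), against a median of 100% over 23 other members (39.9% to 100%, the lowest in Vcp). Ccl21b, Gm13304, Gm10591, Il11ra2, Fam205a2, Fam205a3, Gm21586, Gm21953 and Gm2457 had no word of their own. Some of these GENCODE transcripts were shorter than the longest transcript of the same gene in the deposited data. Ccl21b had 402 against 831 bases and Il11ra2 1299 against 2680, and the remaining bases were not searched. Ccl21a had 28.4%, Il11ra1 53.5% and Ccl27a 33.6%. The read length and the treatment of reads that match several places are not given in the sources used here, so the counts of single copies within a family are uncertain, and sums over a family are given beside them.

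The deposited counts divided the reads of the CCL21 family among its copies in much the same way in all 12 libraries. In the CCL21 family, Gm13304 took 24.9% to 26.1% of reads in Cre- and 24.5% to 26.6% in AGR cKO libraries, and Ccl21a took 2.48% to 5.18% over all libraries. Il11ra1 took 80.9% to 86% of its family's reads in Cre- and 84% to 88.5% in AGR cKO libraries, with Gm13305 and Il11ra2 sharing the rest about evenly. In control alone its share was 84.5% to 86% in Cre- and 86.4% to 88.5% in AGR cKO, without overlap. In the CCL27 family the shares differed between genotypes: Ccl27a took 71.7% to 73.6% in the 6 Cre- libraries and 78.3% to 86.4% in the 6 AGR cKO libraries. Its copies Ccl27b and Gm13306 took 9.85% to 12.6% and 10.3% to 14.3% in Cre-, against 5.74% to 8.59% and 6.22% to 10.1% in AGR cKO. These shares belong to the contrast that chose the stretch and are given without a test.

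**Figure D1:**
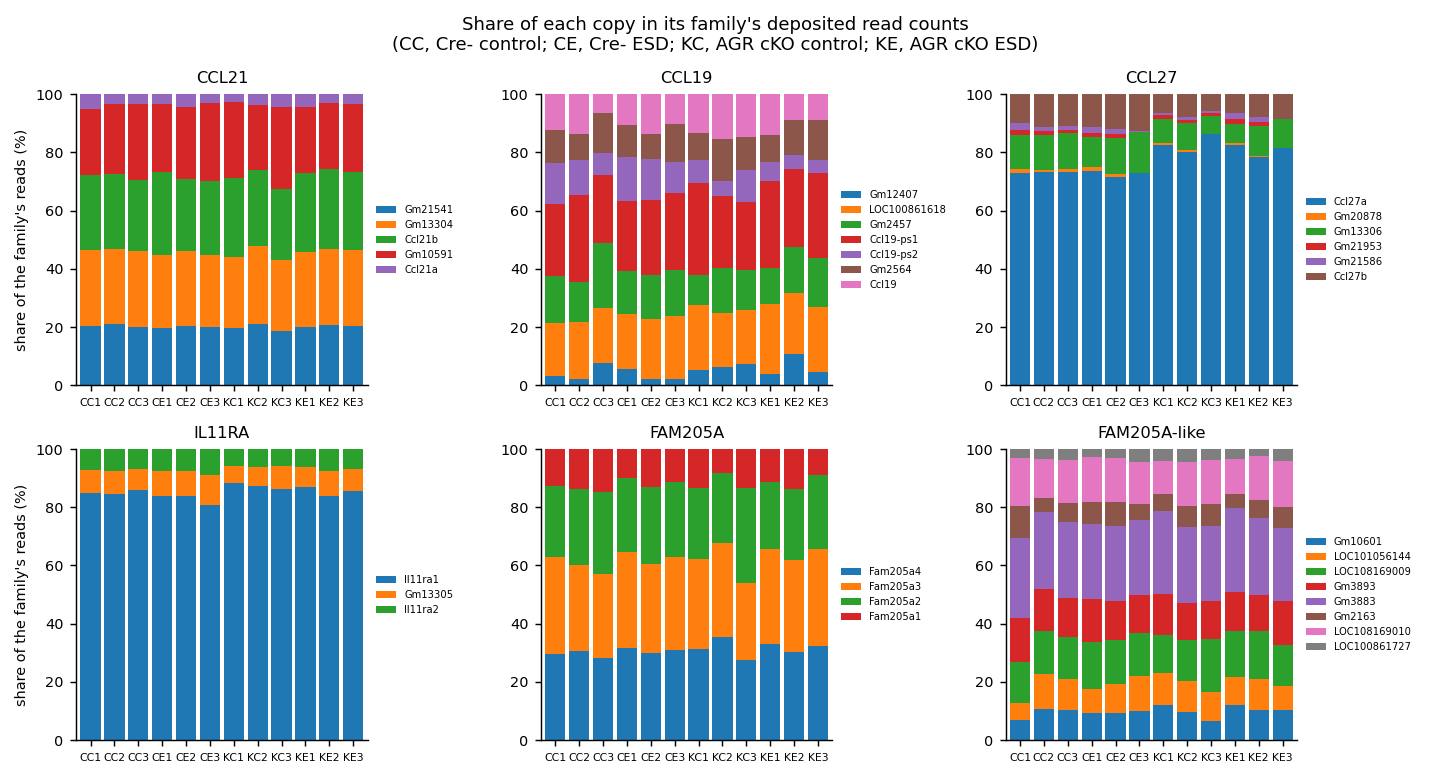
Stacked bars give the share (%) of each copy in its family's deposited read counts, 1 bar per library (CC, Cre- control; CE, Cre- ESD; KC, AGR cKO control; KE, AGR cKO ESD). Within CCL21 the share of Gm13304 was 24.5% to 26.6% in all libraries, while Ccl27a took 71.7% to 73.6% in Cre- and 78.3% to 86.4% in AGR cKO libraries.

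Each library held 4.26e+07 to 5.21e+07 counted reads. Nr3c1, the targeted gene, was lower in every AGR cKO library (66.6 to 108.0 CPM) than in every Cre- library (199 to 237), where CPM is the read count scaled to the library's total with TMM factors. Aldh1l1, an astrocyte gene whose promoter drives the recombinase, had 377 to 667 CPM in the 12 libraries. Markers of several other cell types had lower medians in AGR cKO, as had the copies described next, and their part in the results was not tested. The summed level of 12 microglia and macrophage markers was 343 to 989.7, 474 to 795, 193 to 439.9 and 162 to 423 CPM, in the order Cre- control, Cre- ESD, AGR cKO control, AGR cKO ESD. For 10 endothelial markers the ranges were 339 to 1830.0, 396 to 1074, 326 to 709.9 and 235 to 461 CPM in the same order, with the library Cre- control 1 highest. For 3 lymphatic endothelial markers (Lyve1, Flt4, Mmrn1) they were 9.09 to 46.1, 10.8 to 25.2, 8.21 to 16.6 and 5.68 to 12.5 CPM, and none of the 3 was at 0 in every library. The median log2 difference of AGR cKO minus Cre- was -1.02 in control and -1.09 under ESD over the microglial list (12 of 12 genes below 0 in both), and -0.97 in control and -1.02 under ESD over the endothelial list (10 of 10). For the 3 lymphatic markers it was -1.07 in control and -0.78 under ESD. No gene of these lists passed the edgeR test for genotype. For 6 ependymal markers the medians were -1.04 in control (6 of 6 below 0) and -0.83 under ESD (5 of 6). The medians were 0.10 in control and -0.45 under ESD for mural cell and fibroblast markers, 0.48 in control and -0.60 under ESD for neurons, 0.13 in control and -0.21 under ESD for oligodendrocytes, -0.09 in control and -0.35 under ESD for their precursors and -0.06 in control and -0.03 under ESD for astrocytes. Of 6 T cell markers, Cd8a was at 0 in all libraries and Cd3e, Cd3d and Cd3g had at most 2 reads in any. Cd4 and Trac passed the filter, with a median log2 difference of -0.045 in control and -0.588 under ESD. The 6 T cell markers together had 1.03 to 1.44, 0.784 to 1.26, 0.978 to 1.21 and 0.537 to 0.933 CPM, in the same order of groups.

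Between genotypes, most copies and unmatched members were lower in AGR cKO, and most of the single genes around them differed less. Of the 77 members, 62 passed the filter on low counts, 11 had only 7 to 69 reads over all libraries, and 4 had none. The median log2 difference of the tested members, AGR cKO minus Cre-, was -0.78 in control and -0.53 under ESD, where the median over all 19163 tested genes was -0.01 and 0.00. Within the 41 tested members that were in a family or among the 12 unmatched the medians were -0.94 and -0.75, and 39 and 36 of them were below 0. Over the other 21 they were -0.10 and -0.06. In control, 29 of the 62 (46.8%) were lower in all 3 AGR cKO than in all 3 Cre- libraries, where 8.39% of all tested genes were. Under ESD this held for 21 of 62 (33.9%), with 9.64% of all tested genes, and for 14 of 62 (22.6%) in both conditions, with 2.41% of all. Without the library Cre- ESD 3, in which many copies were low, the last count was 22, but with fewer libraries compared it cannot fall. With the reads of each family added up it was 7, and with a stricter filter (1 CPM in 3 libraries) 9. Both leave fewer units to count. The share over all genes was not computed for these settings, and the 2.41% does not apply to them. No member was higher without overlap in both conditions, and only 465 of all 19163 tested genes were. Since the stretch was selected on this contrast, and members high in only 1 group can pass the filter through that group, these counts describe the choice and carry no test. The median differences of the microglial, endothelial, lymphatic endothelial and ependymal markers, given above, were about as low as those of the copies, and their part was not tested. In bulk samples, fewer cells of a type and less RNA per cell cannot be told apart.

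**Figure D2:**
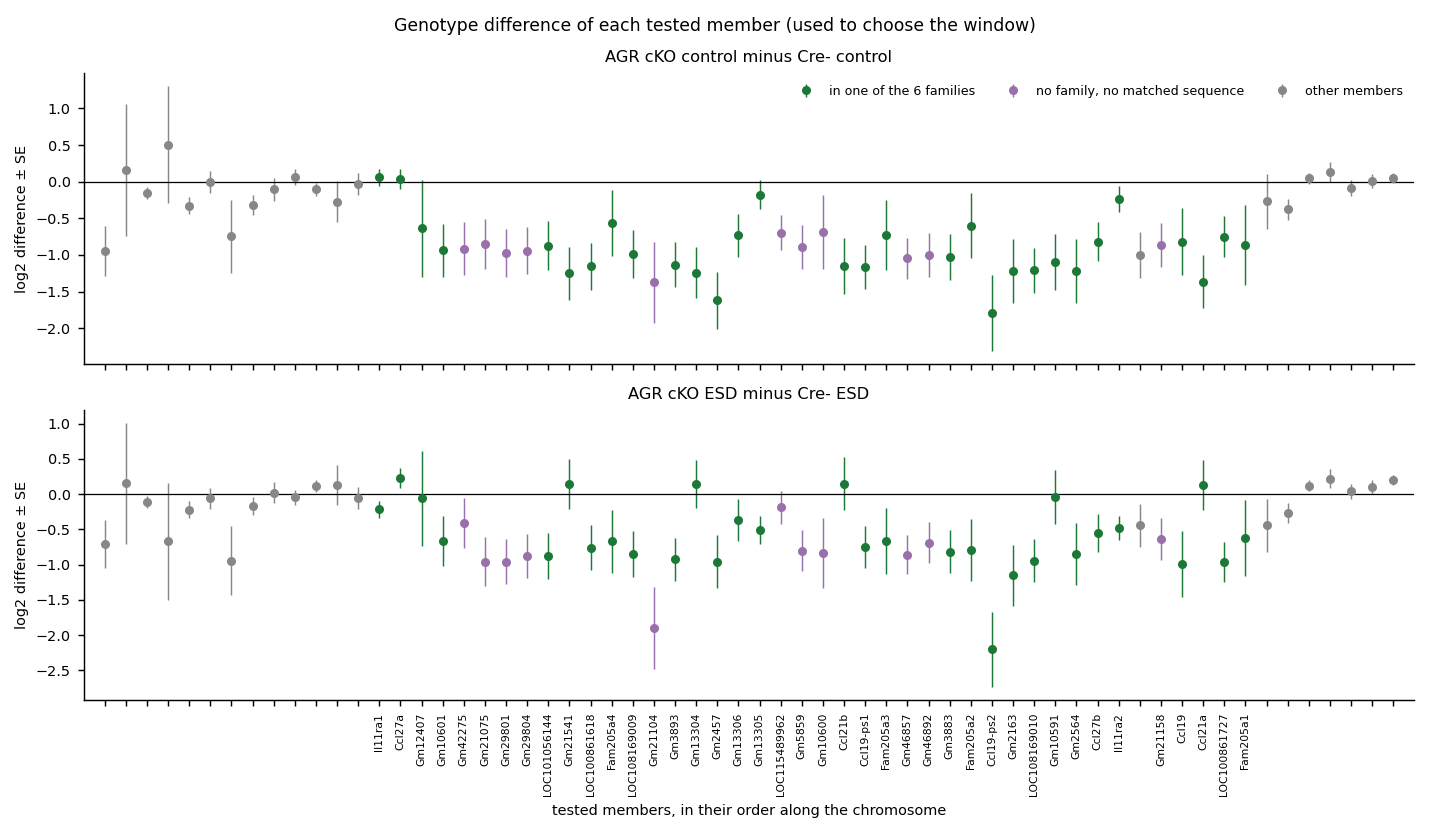
Points give the log2 difference of each of the 62 tested members, AGR cKO minus Cre-, with its standard error. Control is on top and ESD at the bottom, in the members' order along the chromosome. Names are given for the members in a family and for the unmatched members. Copies and unmatched members in the middle lie mostly between -0.5 and -1.5. Most single genes at both ends lie nearer 0, except 1110017D15Rik, Gm12404 and Gm12405 at the near end. The CCL21 copies lie near 0 under ESD only.

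The CCL21 family was lower in AGR cKO in control but not under ESD. Its 5 copies together had 9.68, 18.4 and 14.7 CPM in Cre- control, 9.92, 5.98 and 10.5 in Cre- ESD, 8.68, 4.32 and 5.67 in AGR cKO control and 8.35, 13.4 and 6.58 in AGR cKO ESD. The 3 AGR cKO control libraries lay below the 3 Cre- control libraries, and under ESD the groups overlapped, with AGR cKO ESD 2 the highest. The 4 copies with most reads followed each other. Gm13304 had 2.53, 4.76 and 3.84 CPM in Cre- control, 2.49, 1.54 and 2.61 in Cre- ESD, 2.13, 1.15 and 1.39 in AGR cKO control and 2.15, 3.48 and 1.71 in AGR cKO ESD. Its log2 difference between genotypes was -1.25 ± 0.35 in control and 0.15 ± 0.34 under ESD. Ccl21b had 2.51, 4.73 and 3.63 CPM in Cre- control, 2.82, 1.48 and 2.66 in Cre- ESD, 2.37, 1.13 and 1.37 in AGR cKO control and 2.27, 3.66 and 1.78 in AGR cKO ESD. These copies share all their coding letters. Gm10591 had 2.18, 4.43 and 3.82 CPM in Cre- control, 2.33, 1.48 and 2.81 in Cre- ESD, 2.27, 0.978 and 1.60 in AGR cKO control and 1.89, 3.02 and 1.53 in AGR cKO ESD. Gm21541 had 1.96, 3.87 and 2.93 CPM in Cre- control, 1.96, 1.23 and 2.09 in Cre- ESD, 1.70, 0.912 and 1.05 in AGR cKO control and 1.69, 2.79 and 1.34 in AGR cKO ESD. In all 4, Cre- control 2 was the highest and AGR cKO control 2 the lowest library. Ccl21a had a mean of 0.534 ± 0.0649 CPM in Cre- control and 0.206 ± 0.0503 in AGR cKO control (SD, n = 3). The log2 differences of the 5 copies ran from -1.36 to -1.10 in control and from -0.04 to 0.15 under ESD. Under ESD the sign rests on single libraries: Gm13304 was at -0.20 without AGR cKO ESD 2 and at -0.06 without Cre- ESD 2.

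The CCL19 family was lower in AGR cKO in both conditions, at low counts of 81 to 320 reads per library. Its 7 members together had 6.98, 3.12 and 3.73 CPM in Cre- control, 4.21, 3.65 and 3.86 in Cre- ESD, 1.92, 2.11 and 1.85 in AGR cKO control and 2.15, 2.01 and 2.03 in AGR cKO ESD. All 6 AGR cKO libraries lay below all 6 Cre- libraries, and Cre- control 1 stood above the rest. That library also had the highest summed endothelial, lymphatic endothelial and microglial markers (1830.0, 46.1 and 989.7 CPM), and the part of those cells in the difference was not tested. Ccl19-ps1, annotated as a pseudogene, had 1.72, 0.937 and 0.867 CPM in Cre- control, 1.01, 0.948 and 1.02 in Cre- ESD, 0.606, 0.521 and 0.434 in AGR cKO control and 0.642, 0.537 and 0.592 in AGR cKO ESD. LOC100861618, a transcribed pseudogene, had 1.29, 0.609 and 0.703 CPM in Cre- control, 0.790, 0.751 and 0.828 in Cre- ESD, 0.430, 0.391 and 0.343 in AGR cKO control and 0.522, 0.418 and 0.455 in AGR cKO ESD. Their log2 differences were -1.17 ± 0.30 in control and -0.75 ± 0.30 under ESD, and -1.15 ± 0.32 in control and -0.76 ± 0.32 under ESD. Gm2457 had 1.11, 0.422 and 0.844 CPM in Cre- control, 0.628, 0.553 and 0.610 in Cre- ESD, 0.196, 0.326 and 0.252 in AGR cKO control and 0.261, 0.318 and 0.341 in AGR cKO ESD. Ccl19 itself, the gene of the chemokine, had 0.850, 0.422 and 0.234 CPM in Cre- control, 0.446, 0.494 and 0.392 in Cre- ESD, 0.254, 0.326 and 0.274 in AGR cKO control and 0.301, 0.179 and 0.182 in AGR cKO ESD, and its groups overlapped in control. Ccl19-ps2, another annotated pseudogene, had 0.981, 0.375 and 0.281 CPM in Cre- control, 0.628, 0.514 and 0.414 in Cre- ESD, 0.156, 0.109 and 0.206 in AGR cKO control and 0.141, 0.0995 and 0.0911 in AGR cKO ESD. It separated the genotypes in both conditions, with log2 differences of -1.79 ± 0.52 in control and -2.20 ± 0.53 under ESD. For Ccl19, the log2 difference of -0.82 ± 0.46 in control was -0.20 without Cre- control 1. Most of the family's reads were assigned to copies annotated as pseudogenes or predicted genes, and which copy a read came from is uncertain.

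In the CCL27 family the main copy did not follow the others. Ccl27a, at the edge of the copied stretch, had 7.44, 8.81 and 6.77 CPM in Cre- control, 5.65, 6.56 and 5.77 in Cre- ESD, 7.94, 7.39 and 8.25 in AGR cKO control and 6.26, 8.04 and 6.69 in AGR cKO ESD, with log2 differences of 0.04 ± 0.14 in control and 0.22 ± 0.14 under ESD. Its groups overlapped in both conditions. Ccl27b had 1.00, 1.34 and 1.01 CPM in Cre- control, 0.851, 1.09 and 1.00 in Cre- ESD, 0.626, 0.717 and 0.549 in AGR cKO control and 0.482, 0.816 and 0.706 in AGR cKO ESD. All AGR cKO libraries were below all Cre- libraries of the same condition, with log2 differences of -0.82 ± 0.27 in control and -0.55 ± 0.27 under ESD. Gm13306, whose promoter is identical to that of Ccl27b, had 1.20, 1.45 and 1.13 CPM in Cre- control, 0.790, 1.13 and 1.13 in Cre- ESD, 0.802, 0.869 and 0.594 in AGR cKO control and 0.502, 1.04 and 0.819 in AGR cKO ESD. Its groups separated in control and overlapped under ESD. Gm20878, Gm21586 and Gm21953 had 35, 69 and 59 reads over all 12 libraries and were not tested.

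The interleukin-11 receptor family, as a sum, differed between genotypes by 0.02 ± 0.11 log2 units in control and -0.26 ± 0.11 under ESD. Il11ra1 had 30.1, 38.5 and 34.3 CPM in Cre- control, 43.3, 42.4 and 38.2 in Cre- ESD, 33.1, 36.6 and 37.6 in AGR cKO control and 39.9, 36.4 and 30.3 in AGR cKO ESD. Its log2 differences were 0.06 ± 0.12 in control and -0.22 ± 0.12 under ESD, and the groups overlapped in both conditions. Gm13305 had 2.79, 3.65 and 2.88 CPM in Cre- control, 4.35, 4.31 and 4.84 in Cre- ESD, 2.17, 2.76 and 3.34 in AGR cKO control and 3.17, 3.66 and 2.62 in AGR cKO ESD. Il11ra2 had 2.53, 3.40 and 2.72 CPM in Cre- control, 3.89, 3.81 and 4.21 in Cre- ESD, 2.15, 2.61 and 2.58 in AGR cKO control and 2.79, 3.28 and 2.46 in AGR cKO ESD. Under ESD both copies were lower in all AGR cKO than in all Cre- libraries, with log2 differences of -0.51 ± 0.20 and -0.48 ± 0.17, and in control they overlapped. Per length, in the deposited TPM, a level corrected for transcript length, Il11ra1 averaged 59.8 over all libraries, against 4.95 for Gm13305 and 3.24 for Il11ra2.

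The 4 Fam205a copies differed as much among the Cre- libraries as between genotypes. Together they had 7.11, 2.76 and 3.16 CPM in Cre- control, 6.50, 6.70 and 2.53 in Cre- ESD, 2.95, 2.69 and 2.58 in AGR cKO control and 2.99, 4.66 and 2.05 in AGR cKO ESD. Cre- control 1, Cre- ESD 1 and Cre- ESD 2 were above 6 CPM, and AGR cKO ESD 2 came next, while the other Cre- libraries lay among the AGR cKO ones. The same 3 Cre- libraries had the highest summed endothelial markers (1830.0, 1074 and 875 CPM), and their part was not tested. Fam205a4 had 2.09, 0.843 and 0.891 CPM in Cre- control, 2.07, 2.02 and 0.784 in Cre- ESD, 0.919, 0.956 and 0.709 in AGR cKO control and 0.984, 1.41 and 0.660 in AGR cKO ESD. Fam205a3 had 2.38, 0.820 and 0.914 CPM in Cre- control, 2.15, 2.03 and 0.806 in Cre- ESD, 0.919, 0.869 and 0.686 in AGR cKO control and 0.984, 1.47 and 0.683 in AGR cKO ESD. Their log2 differences in control, -0.57 ± 0.45 and -0.73 ± 0.48, were -0.01 and -0.07 without Cre- control 1. Fam205a2, Fam205a3 and Fam205a4 have the same 3924 coding bases. Fam205a2 had 1.75, 0.726 and 0.891 CPM in Cre- control, 1.64, 1.78 and 0.654 in Cre- ESD, 0.723, 0.652 and 0.846 in AGR cKO control and 0.683, 1.13 and 0.524 in AGR cKO ESD. Fam205a1, which had the most words of its own of the 4, had 0.894, 0.375 and 0.469 CPM in Cre- control, 0.648, 0.869 and 0.283 in Cre- ESD, 0.391, 0.217 and 0.343 in AGR cKO control and 0.341, 0.637 and 0.182 in AGR cKO ESD. None of the 4 separated the genotypes in either condition.

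A second family, of 8 members that the files mostly describe as FAM205A-2-like or as predicted genes, was lower in AGR cKO at about 1 log2 unit in control. The 8 together had 21.4, 18.8 and 15.1 CPM in Cre- control, 25.7, 23.7 and 14.3 in Cre- ESD, 11.5, 6.54 and 8.73 in AGR cKO control and 11.5, 14.7 and 8.60 in AGR cKO ESD. The groups separated in control. Under ESD they overlapped by 1 library, since Cre- ESD 3 lay just below AGR cKO ESD 2. Gm3883, a transcribed pseudogene with the most reads of them, had 5.87, 4.97 and 3.96 CPM in Cre- control, 6.66, 6.14 and 3.68 in Cre- ESD, 3.30, 1.69 and 2.24 in AGR cKO control and 3.29, 3.88 and 2.19 in AGR cKO ESD. Its log2 differences were -1.03 ± 0.31 in control and -0.82 ± 0.30 under ESD. LOC108169009 had 3.01, 2.83 and 2.16 CPM in Cre- control, 4.17, 3.58 and 2.11 in Cre- ESD, 1.53, 0.912 and 1.60 in AGR cKO control and 1.83, 2.45 and 1.21 in AGR cKO ESD. LOC108169010 had 3.58, 2.53 and 2.20 CPM in Cre- control, 3.95, 3.56 and 2.03 in Cre- ESD, 1.29, 0.999 and 1.303 in AGR cKO control and 1.39, 2.23 and 1.34 in AGR cKO ESD. Both separated the genotypes in control and overlapped under ESD. Gm3893 had 3.18, 2.67 and 2.06 CPM in Cre- control, 3.81, 3.16 and 1.90 in Cre- ESD, 1.60, 0.847 and 1.14 in AGR cKO control and 1.57, 1.81 and 1.297 in AGR cKO ESD. LOC101056144 had 1.29, 2.25 and 1.64 CPM in Cre- control, 2.13, 2.33 and 1.70 in Cre- ESD, 1.25, 0.695 and 0.869 in AGR cKO control and 1.08, 1.55 and 0.706 in AGR cKO ESD. LOC100861727 had 0.632, 0.632 and 0.586 CPM in Cre- control, 0.729, 0.731 and 0.654 in Cre- ESD, 0.469, 0.282 and 0.343 in AGR cKO control and 0.381, 0.338 and 0.364 in AGR cKO ESD. These 3 were lower without overlap in both conditions, and over the whole family the log2 differences ran from -1.22 to -0.75 in control and from -1.15 to -0.66 under ESD.

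For the 12 unmatched members no transcript sequence was at hand, so their likeness to the copies was not measured. No role is given to them. Together they had 37.4, 51.7 and 40.4 CPM in Cre- control, 64.0, 57.3 and 37.1 in Cre- ESD, 32.6, 17.4 and 18.8 in AGR cKO control and 32.0, 36.2 and 21.2 in AGR cKO ESD. All 6 AGR cKO libraries lay below all 6 Cre- libraries, with Cre- ESD 1 and 2 highest. Gm21075, an annotated pseudogene with the most reads of them, had 8.94, 12.95 and 10.7 CPM in Cre- control, 17.1, 15.8 and 8.58 in Cre- ESD, 9.29, 4.45 and 4.30 in AGR cKO control and 8.07, 8.50 and 4.80 in AGR cKO ESD. It overlapped in control through AGR cKO control 1, and its log2 difference there of -0.85 ± 0.34 was -1.31 without that library. Gm29804 had 7.44, 11.4 and 8.70 CPM in Cre- control, 14.8, 13.02 and 8.10 in Cre- ESD, 7.14, 3.82 and 3.34 in AGR cKO control and 6.76, 8.02 and 4.74 in AGR cKO ESD. Gm5859 had 7.07, 9.74 and 7.76 CPM in Cre- control, 12.1, 10.6 and 7.69 in Cre- ESD, 6.35, 3.28 and 3.57 in AGR cKO control and 6.38, 7.20 and 3.85 in AGR cKO ESD. In both, AGR cKO control 2 and 3 were the lowest of the control libraries. Gm29801 had 3.53, 5.51 and 4.22 CPM in Cre- control, 6.64, 5.71 and 3.66 in Cre- ESD, 3.09, 1.63 and 2.01 in AGR cKO control and 3.01, 3.52 and 1.71 in AGR cKO ESD. Gm46857 had 2.55, 3.30 and 2.39 CPM in Cre- control, 3.69, 3.24 and 2.42 in Cre- ESD, 1.68, 0.934 and 1.37 in AGR cKO control and 1.83, 2.09 and 1.23 in AGR cKO ESD. These 4 separated the genotypes in both conditions, and in control the log2 differences of the 11 tested ran from -1.37 to -0.69. The same libraries were high for these genes and for the FAM205A-like family, with Cre- ESD 1 and 2 at the top and AGR cKO control 2 and 3 and AGR cKO ESD 3 at the bottom.

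**Figure D3:**
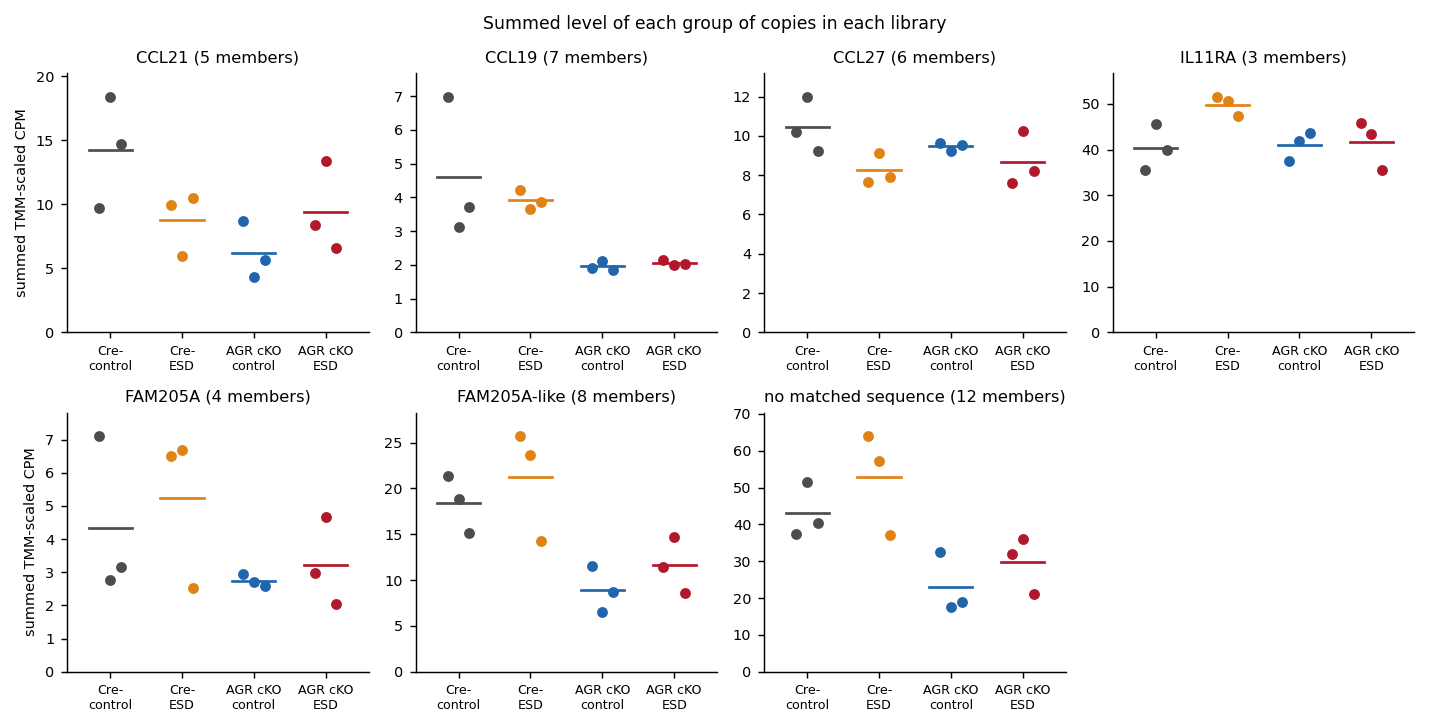
Each point is the summed level (TMM-scaled CPM) of a family's members in 1 library and each line the mean of 3 libraries, by group. Shown are the 6 families and the 12 unmatched members. The CCL19 sum is 1.85 to 2.15 CPM in all AGR cKO libraries and above 3 in all Cre- libraries, while CCL21 separates in control only and IL11RA overlaps in control.

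Most single genes at both ends differed less. Cntfr, the receptor subunit that binds ciliary neurotrophic factor and the most abundant member per length (mean TPM 332), had group means of 301 ± 47.9, 297 ± 30.8, 241 ± 28.7 and 265 ± 27.5 CPM (SD, n = 3, in the order Cre- control, Cre- ESD, AGR cKO control, AGR cKO ESD). Vcp, an ATPase that pulls ubiquitinated proteins apart, came second per length (mean TPM 275), with group means from 307 to 336 CPM. Enho, which encodes the secreted peptide adropin, had group means from 66.1 to 74.4 CPM. Dnaic1, an intermediate chain of the dynein of motile cilia, had 13.1, 14.99 and 12.3 CPM in Cre- control, 12.1, 13.2 and 15.2 in Cre- ESD, 10.3, 11.9 and 9.99 in AGR cKO control and 11.9, 11.7 and 11.1 in AGR cKO ESD. It was lower without overlap in both conditions, with log2 differences of -0.33 ± 0.12 in control and -0.22 ± 0.12 under ESD, the smallest in size among the 14 members of which this held. The 6 ependymal markers, of ciliated cells, summed to 80.8 to 139.5, 60.3 to 78.4, 43.1 to 78.8 and 43.8 to 60.5 CPM in the same order, and their part was not tested. 1110017D15Rik, the first member, had 3.34, 4.85 and 2.86 CPM in Cre- control, 2.21, 2.25 and 4.25 in Cre- ESD, 2.41, 2.24 and 1.07 in AGR cKO control and 1.93, 1.79 and 1.62 in AGR cKO ESD, also without overlap in both conditions. 4930578G10Rik, a gene among the copies that is in no family, had 2.11 ± 0.358 CPM in Cre- control and 1.06 ± 0.253 in AGR cKO control (SD, n = 3), without overlap.

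Among the other abundant single genes named here, log2 differences between genotypes stayed within -0.44 and 0.22. Fam219a, Rpp25l, Dctn3 (a dynactin subunit) and Galt (an enzyme of galactose breakdown) lay before the copies. Phf24, Dnajb5 (a co-chaperone of Hsp70 proteins), Fancg (of the Fanconi DNA repair complex), Pigo (of GPI anchor assembly), Stoml2 (a protein of the inner mitochondrial membrane) and Fam214b lay after them. Dnajb5 had 34.6 and 26.6 CPM in Cre- and AGR cKO control, without overlap, at a log2 difference of -0.38 ± 0.15. Under ESD its difference of -0.27 ± 0.15 was -0.01 without Cre- ESD 3, the highest library. Fam214b was slightly higher in all 3 AGR cKO ESD than in all 3 Cre- ESD libraries, at 0.21 ± 0.07. Just outside the borders, the 4 nearest tested genes on the near side (Ubap1, Kif24, Nudt2, Myorg) had log2 differences from -0.25 to 0.24 in control, and the 4 on the far side (Unc13b, LOC108168936, Atp8b5, Rusc2) from -0.15 to 0.60. Just inside, 1110017D15Rik had -0.95 ± 0.34 and Fam214b 0.05 ± 0.07.

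Stress was not part of how the stretch was picked and could be tested. The edgeR quasi-likelihood test called 0 of 62 members for ESD in Cre-, 0 for ESD in AGR cKO and 0 for the interaction of genotype and ESD at a Benjamini-Hochberg adjusted p under 0.05, and over all genes the share called was 0% in each (0 of 19163). At an unadjusted p under 0.05 there were 5, 1 and 4 members, and 1378, 1453 and 860 genes in all (7.19%, 7.58% and 4.49%). DESeq2 called 0 members in each, and 26, 23 and 9 genes. The median log2 difference of the tested members was 0.10 for ESD in Cre- and 0.19 for ESD in AGR cKO, where that of all genes was -0.02 and 0.00.

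For ESD in Cre-, the interleukin-11 receptor copies Gm13305 and Il11ra2 had the smallest p, and Il11ra1 came after Ccl27a and Ccl21a. Gm13305 was 4.50 ± 0.294 CPM in Cre- ESD against 3.11 ± 0.474 in Cre- control (SD, n = 3), with all 3 ESD libraries above all 3 control ones, a log2 difference of 0.53 ± 0.20 (SE) and an adjusted p of 0.657 by edgeR. Il11ra2 had a difference of 0.46 ± 0.17 and Il11ra1 of 0.27 ± 0.12, with adjusted p of 0.657 and 0.691 by edgeR. With the reads of the 3 copies added up, the difference was 0.30 ± 0.11 and the edgeR adjusted p 0.658. Ccl27a and Ccl21a lay on the other side, at -0.36 ± 0.14 and -0.82 ± 0.35, with edgeR adjusted p of 0.678 and 0.691. None of these passed the test.

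For ESD in AGR cKO, LOC115489962, a member with no matched sequence, had the smallest p, with a log2 difference of 0.66 ± 0.24 and an edgeR adjusted p of 0.647. Stoml2 (0.19 ± 0.10), Fam219a (0.17 ± 0.09), Gm13304 (0.65 ± 0.35) and Gm46892 (0.56 ± 0.30) followed, with edgeR adjusted p from 0.688 to 0.726.

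The 5 CCL21 copies had the smallest p for the interaction, that is, for a genotype difference that depends on ESD. Their estimates ran from 1.06 to 1.49 log2 units, as in Ccl21a (1.49 ± 0.51, edgeR adjusted p = 0.999) and Gm13304 (1.39 ± 0.49, edgeR adjusted p = 0.999). As 1 sum, the family had an interaction of 1.29 ± 0.48 with an edgeR adjusted p of 0.999. The copies share most of their sequence, so the 5 estimates are close to 1 measurement. The sum was 14.3 ± 4.37 CPM in Cre- control, 8.80 ± 2.46 in Cre- ESD, 6.22 ± 2.23 in AGR cKO control and 9.43 ± 3.51 in AGR cKO ESD (SD, n = 3). Both the ESD difference in Cre- and the genotype difference in control rest on the same 3 Cre- control libraries, of 9.68 to 18.4 CPM. After adjustment the interaction did not pass, and a p over the threshold does not show that the groups were alike.

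**Figure D4:**
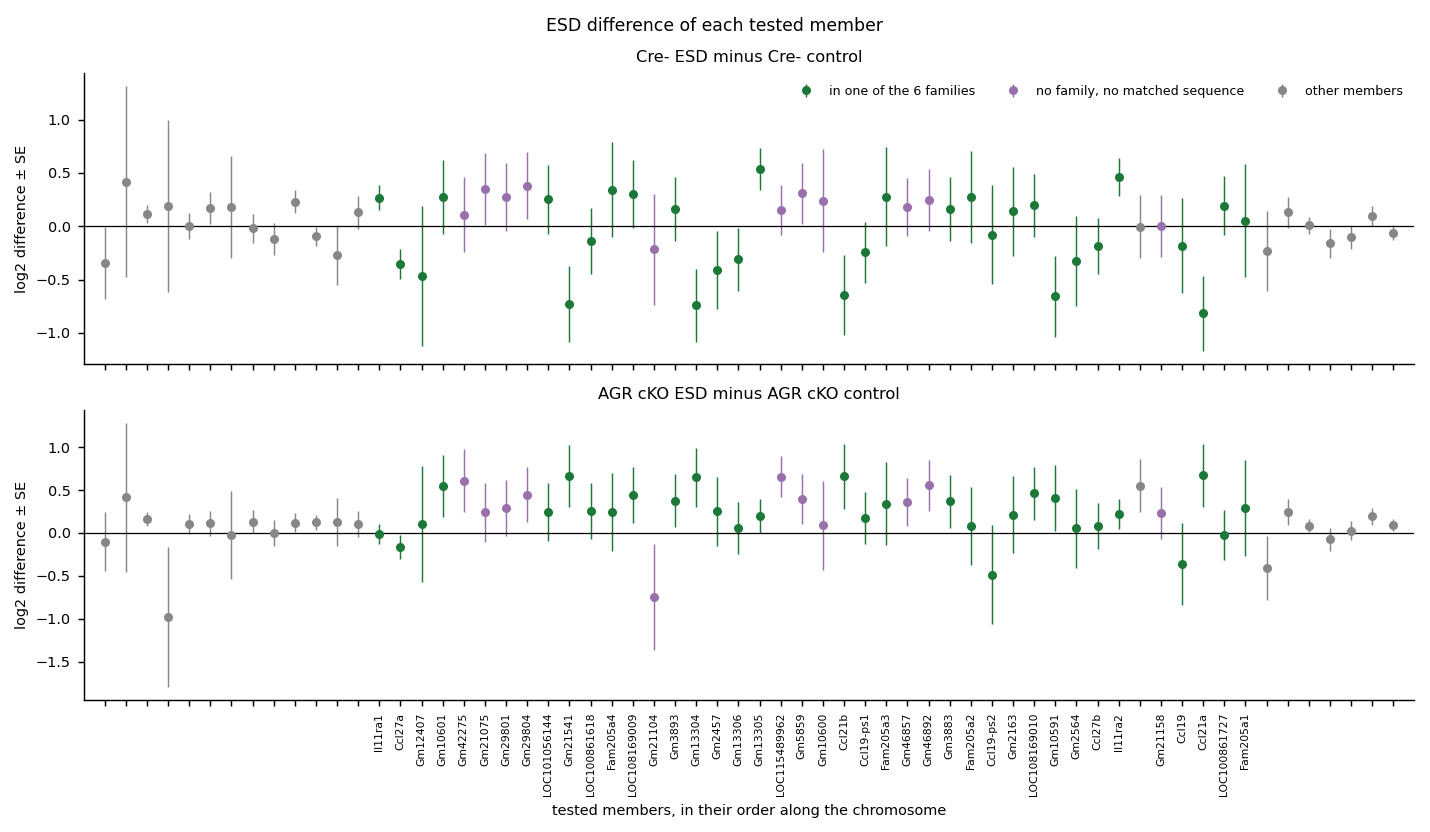
Points give the log2 difference of each of the 62 tested members, ESD minus control, with its standard error. Cre- is on top and AGR cKO at the bottom, in the members' order along the chromosome. Names are given for the members in a family and for the unmatched members. No member passed the edgeR test in either genotype, and the CCL21 copies lie between -0.82 and -0.64 in Cre- and between 0.41 and 0.67 in AGR cKO.

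Genes outside the stretch that work with the members were counted by list, from lists chosen with earlier results of these data known. Of 16 genes of interleukin-6 family cytokines and gp130 signalling, 7 chemokine genes and receptors, 7 genes of galactose breakdown, 8 dynactin subunits, 12 VCP cofactors and 20 genes of GPI anchor assembly, 16, 5, 7, 8, 12 and 19 were tested. The edgeR test called none of them, in either direction, for ESD in either genotype, for genotype in either condition or for the interaction. Il6st, the gp130 chain through which the interleukin-11 and ciliary neurotrophic factor receptors signal, had 322 to 463 CPM, with genotype differences of 0.29 ± 0.10 in control and 0.21 ± 0.10 under ESD and edgeR adjusted p of 0.337 and 0.334. Ccr7, the receptor of CCL19 and CCL21, had 0 to 0.48 CPM, and Ccr10, the receptor of CCL27, had at most 10 reads in a library and was not tested. Ccrl2, an atypical chemokine receptor, was 16.0 ± 5.42 CPM in AGR cKO ESD against 31.8 ± 5.31 in Cre- ESD (SD, n = 3), at -0.99 ± 0.32 and an edgeR adjusted p of 0.180. For ESD in Cre-, Pigw had the smallest p (-0.61 ± 0.20, edgeR adjusted p 0.640). For genotype it was Ugp2, an enzyme that makes UDP-glucose, at 0.32 ± 0.10 in control and 0.36 ± 0.10 under ESD, with edgeR adjusted p of 0.280 and 0.112. For ESD in AGR cKO, Lif (-0.85 ± 0.25) and Socs3 (0.46 ± 0.14), a cytokine and a feedback inhibitor of the gp130 pathway, had the smallest p, both with an edgeR adjusted p of 0.647. DESeq2 called 3 of the listed genes, each for genotype under ESD: Il6ra (log2 difference -0.99), Ccrl2 (-1.0) and Ugp2 (0.35), with DESeq2 adjusted p of 0.0285, 0.0381 and 0.0217.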

How the data were processed

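RNA of 12 libraries (stranded mRNA kit, 1 µg, RIN above 7.0, per the labels' protocols) was sequenced. Per the submitters' processing notes, the tools were Trimmomatic, HISAT, HISAT2 2.1.0, Bowtie2, StringTie 1.3.4b and DESeq2, on build mm10, and their roles are not given. The authors deposited read counts, FPKM and TPM per gene and per transcript. The deposited TPM served for levels per length, and TPM and FPKM for alternatives. The counts of all 77 members equalled the sums over their transcripts. Depth was 4.26e+07 to 5.21e+07 counts per library.

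Members and gene lists were chosen with earlier results of these data known. Counts were fitted with edgeR 4.0.16 (R 4.3.3): filterByExpr, TMM scaling, 1 mean per group over all 12 libraries, quasi-likelihood test, Benjamini-Hochberg adjustment at 0.05 over 19163 genes. The steps were tested on simulated data. Families joined transcripts with at least 95% identity over at least 150 bases and 30% of the shorter one, or, for 4 members, like descriptions. Coding sequences came from GENCODE M21. Named members were those lower in both conditions with a mean of at least 0.5 CPM, up to 4 copies per family with most reads, others of at least 5 CPM, the 5 smallest p-values per test, and 4 neighbours per border. LOC115489962, Ccl19-ps2 and 4930578G10Rik are named beside them, the last 2 after their values were seen. Alternatives were DESeq2 1.42.0, limma 3.58.1 on log2(TPM + 1) and log2(TPM + 0.1), the deposited TPM and FPKM for counts without overlap, other filters and scaling, family sums (chosen after seeing the data), the replicate number as a block and leaving out each library. The replicate numbers were not taken as pairs, since only some same-numbered libraries correlated best with each other. A result that the rule for names would give for 1 more gene is not reported here.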

Additional observations from a re-analysis of the deposited data

How the results depend on the processing

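No member was called for ESD in Cre-, ESD in AGR cKO or the interaction under any of the 22, 22 and 21 alternatives (0 each), and the lowest adjusted p of any member (edgeR, DESeq2 or limma) was 0.383, 0.351 and 0.662. The median genotype difference of the tested members in control was -0.78, and -0.35 with copies summed by family, where a family counts once, and -0.40 with limma on log2(TPM + 1), which understates changes of low genes. Leaving out 1 library gave -0.87 to -0.71 in control and -0.67 to -0.43 under ESD. Under ESD the other alternatives ran from -0.54 to -0.26. The count of members lower without overlap in both conditions was 14. It was 9 with a filter of 1 CPM in 3 libraries, which tests fewer genes, and 7 with copies summed by family. With 1 library left out it was 14 to 22, but dropping a library from this comparison can only keep or raise the count. The shares over all genes under these settings were not computed. DESeq2 called 3 partner genes where edgeR called 0. Of 1900 recomputed genotype values of named members, 24 moved by more than the spread between replicates (1 SD, from the standard error). Counted on values rounded to 2 decimals, a sign changed in 26 values, of 13 differences that were at most 0.27 in size as reported. Among them, Gm13304, Gm21541 and Ccl21b under ESD were -0.20, -0.21 and -0.19 without AGR cKO ESD 2, and Phf24 in control was 0.09 without Cre- control 2. Differences that round to 0.00 could not enter this count. Such were Enho and Stoml2 in control, at -0.19 to 0.13 and -0.05 to 0.05 with 1 library left out. All 306 values for ESD and the interaction kept their direction. With the replicate number as a block, calls were 0, 0 and 0, the medians -0.76 and -0.54, and partner genes called 0. Deviations of same-numbered libraries correlated at -0.104 to 0.227, and not every library correlated best with its own number, so the numbers were not taken as pairs. Copies with few reads and shared sequence limit what single copies can show.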
